A study of Rattus norvegicus with 12 samples.

Results

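Expression of 6 genes of antigen presentation on major histocompatibility complex (MHC) class II was followed over 12 arrays of rat heart. They are RT1-Ba, RT1-Bb, RT1-Da and RT1-Db1, which encode the chains of the class II molecules, Cd74, which encodes the invariant chain, and Ciita, which encodes the class II transactivator. All probe sets whose only annotated symbol was one of these names were taken, which gave 12 of the 31042 probe sets on the array, for 6 of 14217 genes with such a symbol. The genes were selected on measured values in part, since RT1-Ba and RT1-Da had lower log2 values in the active groups than in the sedentary group, so their differences from the sedentary group are given as a description, with no test. The left ventricle of female Sprague-Dawley rats aged 16 months was profiled on Affymetrix Rat Genome arrays, which read a transcript through sets of short oligonucleotides called probe sets. EX rats had lifelong voluntary exercise, PA rats spent 1 h in a large box 2 times a week, and SED rats had only the standard cage. Each group had 4 arrays, and all animals shared strain, sex and age. The series' design text describes pools of 4 animals per array, so each value is already an average over animals, and nothing in the labels says which animals went into which array.

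Class II molecules are pairs of an alpha and a beta chain that show peptides from endosomes to CD4 T cells. RT1 is the rat MHC, in which RT1-Ba and RT1-Bb encode the alpha and beta chain of one molecule (the counterpart of HLA-DQ in humans) and RT1-Da and RT1-Db1 those of another (the counterpart of HLA-DR). The invariant chain encoded by Cd74 escorts the pair to endosomes and blocks its groove until proteases remove it. Macrophages, dendritic cells and B cells carry class II at rest, other cells mainly after interferon gamma, and transcription depends on the coactivator encoded by Ciita. It is recruited by proteins bound to the X box and the Y box, short elements upstream of class II genes and of Cd74.

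A promoter stretch of each gene but Ciita is shown, since letters like these elements were found in each, though not the same ones in all. In the RefSeq gene order of GRCr8, RT1-Da, RT1-Db1, RT1-Ba and RT1-Bb lie on chromosome 20 as neighbours, with RT1-Db2 between RT1-Da and RT1-Db1, whereas Cd74 is on chromosome 18 and Ciita on chromosome 10. RefSeq promoter windows (GRCr8, 250 bases before to 50 after the gene start) were found for 5 of the 6 genes, all but Ciita, and 75 bases of each are printed 5′ to 3′ on the gene's strand. Capitals mark a Y-box-like CTGATTGG (for Cd74 CCAAT, the opposite strand of ATTGG), an X-box-like AGNNAC before it and, in RT1-Ba, TGACGTCA. The windows are chr20:4576959-4577033 on the plus strand for RT1-Ba, chr20:4604160-4604234 on the minus strand for RT1-Bb, chr20:4515311-4515385 on the plus strand for RT1-Da, chr20:4560223-4560297 on the minus strand for RT1-Db1 and chr18:56526962-56527036 on the plus strand for Cd74.
RT1-Ba: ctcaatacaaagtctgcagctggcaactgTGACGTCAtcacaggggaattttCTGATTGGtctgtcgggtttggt
RT1-Bb: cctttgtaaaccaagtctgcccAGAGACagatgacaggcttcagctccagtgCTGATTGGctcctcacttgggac
RT1-Da: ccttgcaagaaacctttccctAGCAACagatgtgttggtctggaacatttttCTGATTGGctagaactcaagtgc
RT1-Db1: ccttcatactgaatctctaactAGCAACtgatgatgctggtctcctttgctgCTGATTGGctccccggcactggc
Cd74: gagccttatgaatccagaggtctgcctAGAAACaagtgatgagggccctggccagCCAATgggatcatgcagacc
CTGATTGG, which contains ATTGG, was found on either strand in 4 of the 5 windows, all but that of Cd74, and in 3.5% of 33469 promoters of the same 300 bases. ATTGG alone was in 5 of 5 and in 37.5% of all promoters. AGNNAC followed within 40 bases by ATTGG was in 4 of 5, all but RT1-Ba, and in 7.06% of all promoters. In these 4 the gap between the elements was 27 bases in RT1-Bb and RT1-Db1, 28 in RT1-Da and 22 in Cd74. TGACGTCA was in the window of RT1-Ba and in 1.83% of all promoters. The letters searched were set with these sequences in view, and a match is a description of letters, not a binding site.

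The 12 arrays had medians within 0.08 of each other on the log2 scale. The interquartile range of their values was narrower on every SED array (3.58 to 3.86) than on any EX or PA array (3.89 to 4.04). Quantile normalization, which evens out this spread, moved EX minus SED from -0.495 to -0.61 for RT1-Ba 1377334_at. For RT1-Db1 1370382_at it moved from -0.095 to -0.03. The 9 measured cardiomyocyte markers averaged 13.04 to 13.11 on each array. These markers had gene means of 12.94 to 13.19, near the highest of all tested genes (13.44), so they show the tissue but not whether its cardiomyocyte content was equal between arrays. SED 1 correlated less with the other arrays (mean r of 0.964) than the other 11 did (0.987 to 0.989). It was also the highest array for 2245 of the 10244 tested genes. SED 3 held the highest class II values, and results that rest on it are given with and without it. Only probe sets among the brightest 60%, ranked by their mean over the 12 arrays, were tested, and 7 of the 12 class II probe sets, for 5 of the 6 genes, passed this filter. Ciita had none.

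The RT1-B chains had their highest value on SED 3. The probe set 1377334_at for the alpha chain gene RT1-Ba read 7.01, 6.34, 6.27 and 6.83 on the EX arrays, 6.62, 6.53, 6.73 and 6.43 on the PA arrays, and 7.18, 6.81, 7.64 and 6.80 on the SED arrays, all as log2 values. Every PA array lay below every SED array, whereas EX and SED overlapped, EX 1 and EX 4 being within the SED range. The means were 6.61 ± 0.364 in EX, 6.58 ± 0.128 in PA and 7.11 ± 0.397 in SED (SD, n = 4 each), or 6.93 ± 0.217 in SED without SED 3 (n = 3). The difference of EX from SED was -0.50 with all arrays and -0.32 without SED 3, and that of PA from SED was -0.53 and -0.35. SED 1 was the second highest array, and with SED 1 and SED 3 both left out the differences were -0.19 and -0.23.

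A second RT1-Ba probe set, 1370822_at, gave 5.88, 6.90, 6.42 and 6.43 in EX, 6.57, 6.74, 6.84 and 5.91 in PA, and 6.41, 6.47, 7.88 and 6.52 in SED. Here 3 SED arrays lay within 0.11 of each other and inside the range of the active groups, and SED 3 stood 0.98 above the next highest array. The means were 6.41 ± 0.417 in EX, 6.52 ± 0.418 in PA and 6.82 ± 0.708 in SED (SD, n = 4 each), or 6.47 ± 0.0551 in SED without SED 3 (n = 3). Without SED 3 the difference of EX from SED moved to -0.06, against -0.41 with it, and that of PA to 0.05, against -0.31. The 2 probe sets of this gene thus differed in whether PA remained below SED once SED 3 was left out. The other RT1-Ba probe sets were dim, with means of 3.84 (1381593_x_at) and 3.69 (1392334_at), and were not tested.

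RT1-Bb encodes the beta chain. Its probe set 1371065_at read 5.93, 5.99, 6.25 and 6.56 in EX, 6.75, 6.26, 5.61 and 6.09 in PA, and 6.18, 6.76, 7.82 and 6.56 in SED. SED 3 was 1.06 above the next array, SED 2, and the other 3 SED arrays overlapped with both active groups. The means were 6.18 ± 0.287 in EX, 6.18 ± 0.471 in PA and 6.83 ± 0.702 in SED (SD, n = 4 each), or 6.5 ± 0.295 in SED without SED 3 (n = 3). The differences from SED were -0.65 for EX and -0.65 for PA with all arrays, and -0.32 for EX and -0.32 for PA without SED 3. Without SED 1 in place of SED 3 they were wider, -0.86 for EX and -0.87 for PA. The dim second probe set, 1371033_at, had its highest value on EX 2 (5.27), against 3.72 to 4.39 on the PA arrays and 3.96 to 4.46 on the SED arrays, so the probe sets of RT1-Bb did not share their highest array.

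The RT1-D chains had the same highest array. RT1-Da, the alpha chain gene (1370883_at), had 7.52, 7.84, 7.58 and 7.80 in EX, 7.58, 7.58, 7.71 and 7.03 in PA, and 7.83, 7.55, 8.93 and 8.01 in SED. SED 2 lay among the active arrays, and SED 3 stood 0.92 above SED 4. The means were 7.68 ± 0.159 in EX, 7.48 ± 0.303 in PA and 8.08 ± 0.597 in SED (SD, n = 4 each), or 7.80 ± 0.232 in SED without SED 3 (n = 3). The difference of EX from SED was -0.40 with all arrays and -0.11 without SED 3, and that of PA was -0.60 and -0.32.

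RT1-Db1, the beta chain gene, had 2 tested probe sets. The brighter, 1370383_s_at, read 7.35, 7.44, 6.97 and 7.51 in EX, 7.71, 7.26, 7.78 and 7.24 in PA, and 7.30, 7.38, 8.87 and 7.67 in SED. SED 3 stood 1.09 above the next array, PA 3, and the other 3 SED arrays were inside the range of PA. Its suffix marks probes that can match more than 1 transcript, so signal from related beta chain genes cannot be told apart. The means were 7.32 ± 0.241 in EX, 7.5 ± 0.287 in PA and 7.80 ± 0.728 in SED (SD, n = 4 each), or 7.45 ± 0.195 in SED without SED 3 (n = 3). The difference of EX from SED was -0.49, or -0.13 without SED 3, and that of PA was -0.31, or 0.05.

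The dimmer RT1-Db1 probe set, 1370382_at, read 4.83, 5.54, 5.14 and 5.19 in EX, 5.36, 5.55, 5.70 and 5.03 in PA, and 4.81, 4.85, 6.06 and 5.36 in SED. SED held both the highest and the lowest array. The means were 5.18 ± 0.291 in EX, 5.41 ± 0.289 in PA and 5.27 ± 0.583 in SED (SD, n = 4 each), or 5.01 ± 0.307 in SED without SED 3 (n = 3). PA was 0.14 above SED with all arrays and 0.40 above it without SED 3, and EX differed from SED by -0.10 with SED 3 and by 0.17 without it.

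Cd74, the invariant chain gene (1367679_at), did not share the size of this pattern. It read 11.72, 11.81, 11.88 and 11.87 in EX, 11.98, 11.86, 11.85 and 11.93 in PA, and 11.60, 11.92, 11.99 and 11.93 in SED. SED 3 was again the highest array, but by 0.01 over PA 1, and SED 1 was the lowest. The means were 11.82 ± 0.0735 in EX, 11.90 ± 0.0614 in PA and 11.86 ± 0.176 in SED (SD, n = 4 each), or 11.82 ± 0.188 in SED without SED 3 (n = 3). The differences from SED were -0.04 for EX and 0.04 for PA, and 0.09 for PA without SED 3.

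Ciita, the transactivator gene, was measured by 2 dim probe sets that did not pass the filter. The first, 1369214_a_at, read 3.94, 3.82, 3.78 and 3.53 in EX, 3.93, 3.84, 3.89 and 3.80 in PA, and 4.12, 3.89, 3.78 and 4.21 in SED. The second, 1379381_at, read 4.32, 4.36, 4.35 and 4.69 in EX, 4.33, 4.19, 4.35 and 4.25 in PA, and 4.51, 4.65, 4.27 and 4.21 in SED. SED 3 was among the lower arrays in both, and the groups overlapped. Whether Ciita differed between the groups was therefore not tested.

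**Figure D1:**
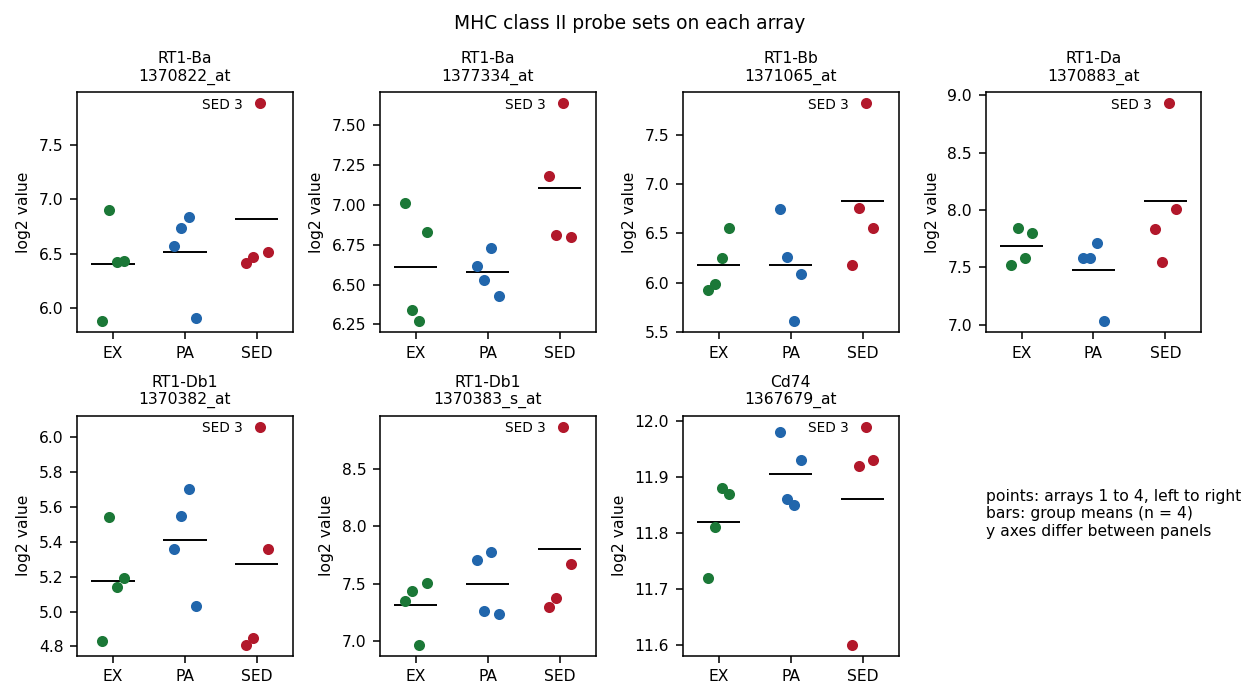
Log2 values of the 7 tested class II probe sets on each array, with EX, PA and SED from left to right, 1 point per array and a bar at the mean of each group (n = 4). SED 3 is the highest point in every panel, by 0.01 for Cd74 and by 0.36 to 1.09 for the other probe sets.

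Across the tested probe sets, the EX mean was below the SED mean in 7 of 7 and the PA mean below it in 5 of 7. Without SED 3 these counts were 5 of 7 and 3 of 7. Leaving out SED 1 in its place moved the RT1-Db1 differences down, to -0.66 for EX and -0.48 for PA (1370383_s_at) and to -0.25 for EX and -0.01 for PA (1370382_at). Of the 5 dim probe sets, 1 was highest on SED 3 (RT1-Ba 1381593_x_at, 4.16). All EX arrays lay below all SED arrays in 0 of 7 probe sets, beside 3.51% of the 18626 tested, and all PA arrays below all SED arrays in 1 of 7 (RT1-Ba 1377334_at), beside 3.51% as well. Taking the brightest tested probe set per gene, the median difference over the 5 genes was -0.49 for EX from SED and -0.53 for PA from SED, and without SED 3 it was -0.13 and -0.32. Over all 10244 genes, the medians were 0.03 and 0.05 with all arrays and 0.04 and 0.05 without SED 3, and the mean was lower than in SED for 42.6% of genes in EX and 39.6% in PA. No probe set of the whole array was called in either comparison with limma (0.0% with an adjusted p under 0.05), while 2906 had an unadjusted p under 0.05 for EX against SED and 2840 for PA against SED. EX and PA were set against the same SED arrays, so their differences from SED are not independent of each other.

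**Figure D2:**
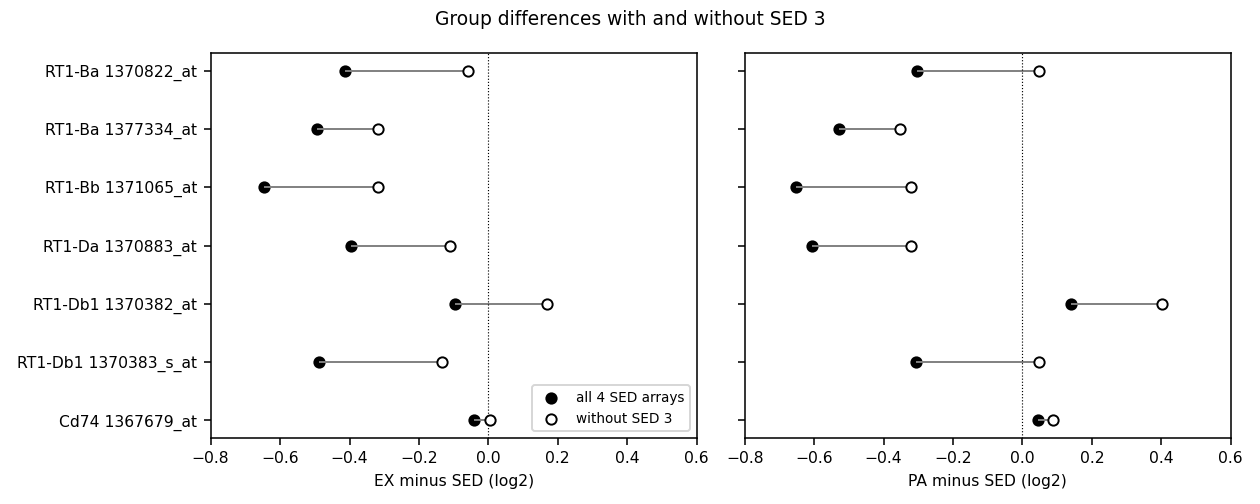
Difference of the group means on the log2 scale for the 7 tested class II probe sets, EX minus SED on the left and PA minus SED on the right. Filled points use all 4 SED arrays and open points leave out SED 3, which moved each difference upward, by 0.04 for Cd74 and by 0.18 to 0.36 for the others.

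The choice of the genes did not use the comparison of EX with PA, which asks whether class II differed between voluntary exercise and the activity box. With limma, 0 of the 7 probe sets passed an adjusted p of 0.05, beside 0.0% of all 18626, and each had an adjusted p of 1.0. None of the 7 had an unadjusted p under 0.05, against 534 of all 18626 probe sets. At so low a share, 0 of 7 does not set class II apart. The difference of EX minus PA was 0.03 for RT1-Ba 1377334_at, with a limma 95% interval of -0.42 to 0.49, and -0.11 for 1370822_at (-0.84 to 0.62). For RT1-Bb it was 0.01 (-0.70 to 0.71), and for RT1-Da 0.21 (-0.34 to 0.76). The RT1-Db1 probe sets gave -0.18 (1370383_s_at, -0.83 to 0.47) and -0.24 (1370382_at, -0.81 to 0.34). Cd74 had the narrowest interval, -0.30 to 0.13 around -0.09. These intervals include differences of over 0.4 in either direction for 4 of the 7 probe sets, so they do not show that EX and PA were alike.

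All class II chain genes were higher on SED 3 than on each of the other 11 arrays. Against the mean of those arrays, it was 2.93-fold higher for RT1-Bb, 2.73-fold (1370383_s_at) and 1.80-fold (1370382_at) for RT1-Db1, 2.45-fold for RT1-Da and 1.94-fold (1377334_at) and 2.67-fold (1370822_at) for RT1-Ba. For Cd74 it was 1.10-fold higher. Ranked by this excess among 10244 genes, RT1-Bb was number 10, RT1-Db1 16, RT1-Da 23, RT1-Ba 84 and Cd74 2382. RT1-Ba and RT1-Da were part of the choice because of lower values in the active groups than in SED. SED 3 enters that difference, so these ranks and the shares below describe the arrays and test nothing. SED 3 was the highest array for 7.0% of all genes, and it exceeded every other array by at least 0.5 for 47 genes (0.459%). The average of the 5 genes, each relative to its own mean, was -0.16, -0.18, -0.27 and 0.05 on the EX arrays, 0.07, -0.16, -0.13 and -0.32 on the PA arrays, and -0.04, 0.02, 0.99 and 0.13 on the SED arrays. Apart from SED 3, the values of EX, PA and SED overlapped.

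Correlations among the chain genes were lower without SED 3. Over 12 arrays, the 15 pairs of the 6 probe sets other than Cd74 had a median Pearson r of 0.71 (0.19 to 0.87), and over the 11 arrays without SED 3 it was 0.30 (-0.49 to 0.77). Pairs with Cd74 had a median of 0.40 over 12 arrays and 0.19 over 11. These are descriptions over arrays that also differ in group, and some pairs share a gene.

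The genes most like the average of the class II genes over the 12 arrays were Ctss (r = 0.936), Dok2 (0.909), Fyb1 (0.894), C3 (0.881), Gpr161 (0.855), Ackr1 (0.849), Cd14 (0.849), C1r (0.841), C5ar1 (0.834) and Psmb9 (0.83). Ctss encodes cathepsin S, a protease that cleaves the invariant chain, C3 and C1r are complement components, and Cd14 is a coreceptor for lipopolysaccharide. Ctss read 9.96, 9.95, 9.91 and 9.90 in EX, 9.98, 9.88, 9.91 and 9.85 in PA, and 9.99, 9.96, 10.55 and 9.93 in SED. SED 3 stood above all other arrays, as for the chain genes, but the other 11 spanned 0.14 for Ctss and 0.81 to 1.15 for the chain probe sets. Without SED 3, the r of Ctss was 0.509 and those of the other 9 ranged from 0.025 (C5ar1) to 0.645 (Dok2). The 10 genes most alike over those 11 arrays, led by Serf1 (0.886), Tsc22d4 (0.871) and Uqcc5 (0.865), shared 0 of 10 with the first set.

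Of the genes that load peptides onto class II, RT1-DMa and RT1-DMb were measured, the chains of the editor that removes the invariant chain remnant. RT1-DMa read 5.39, 4.91, 5.21 and 5.10 in EX, 5.46, 5.45, 5.41 and 5.33 in PA, and 5.40, 5.37, 6.04 and 5.41 in SED. SED 3 was again the highest, and the EX difference from SED was -0.40 ± 0.15 (SE; limma adjusted p = 0.237), or -0.24 without SED 3. Its PA difference from SED was -0.14 (limma adjusted p = 0.664), or 0.02 without SED 3. RT1-DMb was highest on EX 2 (8.03), just above SED 3 (7.96), and its difference of EX from SED was 0.03 (limma adjusted p = 0.962), or 0.16 without SED 3 and -0.20 without SED 1.

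The proteins that bind class II promoters and their coactivators formed a list of 11 genes, and all 11 were tested. None was called, 9 had a higher EX than SED mean and 10 a higher PA than SED mean, with medians of 0.11 and 0.05. Of all 10244 genes, 5828 had a higher EX mean and 6117 a higher PA mean. SED 1 was the lowest array for Rfxap, Nfyb, Nfyc, Creb1, Crebbp and Kat2b, and the highest for Rfx5, Rfxank and Ep300. Relative to its mean over the arrays, the list averaged -0.14 on SED 1, beside -0.12 for all genes. Rfx5, Rfxap and Rfxank encode the regulatory factor X complex of the X box. Rfxank read 8.42, 8.60, 8.42 and 8.41 in EX, 8.37, 8.55, 8.44 and 8.27 in PA, and 9.07, 8.61, 8.47 and 8.53 in SED, with SED 1 and not SED 3 at the top. It differed from SED by -0.21 in EX (limma adjusted p = 0.466) and -0.26 in PA (limma adjusted p = 0.356), or by -0.07 and -0.13 without SED 1. Rfxap differed by 0.28 in EX (limma adjusted p = 0.399), or 0.18 without SED 1, and differed by 0.07 in PA, or -0.04 without SED 1. Rfx5 differed by -0.07 in EX (limma adjusted p = 0.884) and 0.05 in PA (limma adjusted p = 0.924). SED 3 was the highest array for 1 of the 11, and its median excess over the other arrays was -0.01.

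Of 8 tested genes of the interferon gamma pathway, the main inducer of Ciita outside immune cells, 0 were called with limma in either comparison, and 3 in each had an unadjusted p under 0.05, beside 12.9% of all genes for EX and 12.5% for PA. The list's median difference was -0.06 for EX and -0.11 for PA, and 0.05 and 0.0 without SED 3, with 5 of 8 genes lower in each comparison and 3 and 4 of 8 without SED 3. The receptor genes Ifngr1 and Ifngr2 and the kinase gene Jak1, named after their values were seen, had higher EX than SED means, by 0.09, 0.27 and 0.17. SED 1 was the lowest array for Ifngr1 (7.8) and Jak1 (10.37), so their differences rest in part on it. SED 2, SED 3 and SED 4 read 8.18, 8.33 and 7.93 for Ifngr1 and 10.98, 10.97 and 10.84 for Jak1, overlapping with EX. Ifngr2 was lowest on SED 4 (7.26), followed by SED 1 (7.33). Irf1, a transcription factor induced by interferon gamma, read 6.68, 6.77, 6.36 and 6.34 in EX, 6.40, 6.75, 6.69 and 6.66 in PA, and 7.25, 6.77, 7.34 and 7.04 in SED. The SED arrays 1, 3 and 4 were above all active arrays, and SED 2 equalled EX 2. Its difference from SED was -0.56 for EX (limma adjusted p = 0.139) and -0.48 for PA (limma adjusted p = 0.208), and without SED 3 it was -0.48 and -0.40. Socs1, a feedback inhibitor of this signalling, differed by -0.68 in EX (limma adjusted p = 0.134) and -0.53 in PA (limma adjusted p = 0.2), and Usf1, a factor at a Ciita promoter, by -0.41 in both (limma adjusted p = 0.134 for EX and 0.169 for PA). Both were highest on SED 1, the array that stood apart in overall correlation and was the highest for 2245 of all 10244 genes. Without SED 3, Socs1 differed by -0.62 and -0.47, and Usf1 by -0.41 and -0.41. Ifng itself and Jak2 were below the filter.

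Among 11 tested genes of endosomal processing and turnover, 0 were called and SED 3 was the highest array for 3, among them Ctss and Ifi30, which encodes a thiol reductase of lysosomes. Marchf8, a ubiquitin ligase that directs class II to degradation, differed from SED by 0.28 in EX (limma adjusted p = 0.31) and 0.27 in PA (limma adjusted p = 0.343), and without SED 1, its lowest array (7.94), by 0.15 and 0.13. Among 4 tested genes of costimulation and adhesion, 0 were called. A lower mean than SED was seen in 3 for EX and 4 for PA, or in 2 and 2 without SED 3. The list's medians were -0.10 and -0.11, or -0.0 and -0.03 without SED 3. Cd83 differed by 0.255 in EX and -0.10 in PA, and Cd40 by -0.06 and -0.04. Icam1 differed by -0.15 and -0.115, or by 0.11 and 0.14 without SED 3. Cd86, a ligand that activates T cells, read 5.33, 5.58, 5.17 and 5.11 in EX, 5.28, 5.26, 5.15 and 5.23 in PA, and 5.88, 5.49, 6.03 and 5.62 in SED. All PA arrays lay below all SED arrays, as for 3.51% of tested probe sets, EX 2 overlapped with SED, and SED 3 was the highest. Its difference was -0.46 in EX (limma adjusted p = 0.161) and -0.53 in PA (limma adjusted p = 0.173), or -0.37 and -0.43 without SED 3.

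Genes of presentation on MHC class I, which shows peptides from the cytosol to CD8 T cells, included several that were high on both SED 3 and SED 4. SED 3 was the highest array for 9 of the 17 tested, and SED 4 exceeded the 10 arrays other than SED 3 by a median of 0.29. Of the 17, 14 had a lower EX than SED mean and 14 a lower PA than SED mean, and 0 were called. The medians were -0.18 in both comparisons and -0.07 in both without SED 3. Psmb9, a subunit of the immunoproteasome, read 7.14, 6.94, 6.97 and 7.15 in EX, 6.91, 6.77, 7.27 and 7.03 in PA, and 7.17, 7.09, 8.34 and 8.0 in SED. SED 3 and SED 4 stood above all other arrays, and the difference from SED was -0.60 in EX (limma adjusted p = 0.267) and -0.66 in PA (limma adjusted p = 0.259), or -0.37 and -0.42 without SED 3. SED 3 and SED 4 were the top pair of arrays for 7 of the 17 class I genes (41.2%), for 1 of the 5 class II genes (RT1-Da) and for 0.937% of all genes. Psmb10, also of the immunoproteasome, was instead highest on SED 1 (8.34). Also high on both arrays, and named after their values were seen, were Psmb8 (8.33 on SED 3, 8.01 on SED 4) and Nlrc5, the class I transactivator (6.80 and 6.70).

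**Figure D3:**
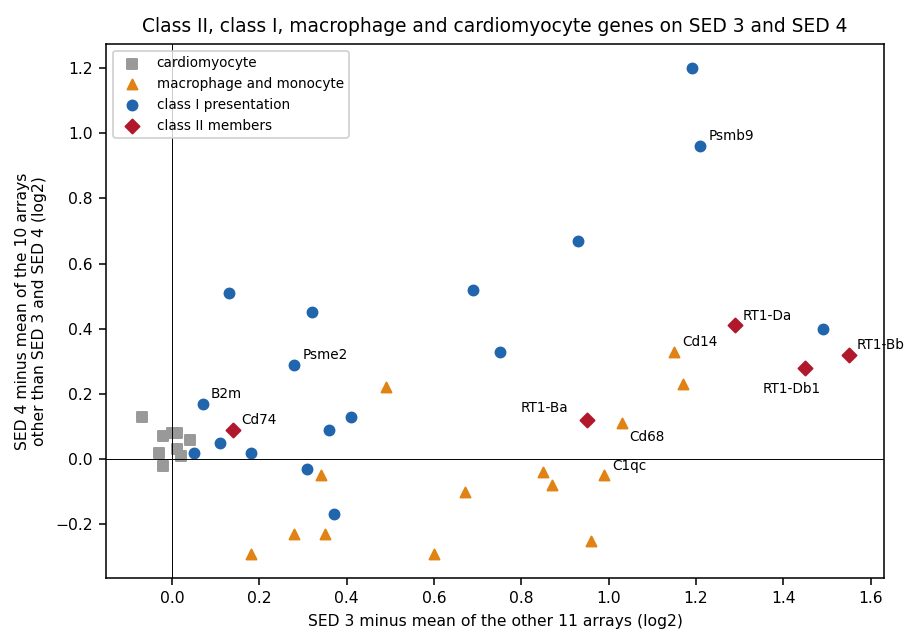
Each point is a gene, placed by its SED 3 value minus the mean of the other 11 arrays (x axis, log2) and its SED 4 value minus the mean of the 10 arrays other than SED 3 and SED 4 (y axis, log2). The RT1 class II genes lie at 0.95 to 1.55 on the x axis and 0.12 to 0.41 on the y axis, and Psmb9 at 1.21 and 0.96. The cardiomyocyte genes lie near 0 on both axes, at levels near the top of the scale.

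Many markers of macrophages, leukocytes and T cells were also highest on SED 3. This held for 12 of 14 tested macrophage and monocyte markers, 6 of 9 pan-leukocyte markers, 4 of 6 T and NK cell markers and 3 of 4 neutrophil and erythroid markers (S100a8, S100a9 and the erythroid gene Alas2), against 2 of 7 endothelial markers, 1 of 3 dendritic cell markers and 0 of 2 B cell markers. Cd14 read 6.23 to 6.46 in EX, 5.73 to 6.37 in PA, 6.43 to 6.72 on the other SED arrays and 7.48 on SED 3. C1qc, a complement chain made by macrophages, read 7.15 to 7.58 in EX, 7.40 to 7.60 in PA, 7.46 to 7.92 on the other SED arrays and 8.50 on SED 3. Other markers differed in direction. The macrophage marker Cd68 differed from SED by -0.20 in EX and 0.08 in PA, or 0.10 and 0.38 without SED 3. The pan-leukocyte marker Ptprc differed by -0.08 in EX and 0.465 in PA, or 0.26 and 0.80 without SED 3. Pan-leukocyte markers had a lower mean than SED in 7 of 9 for EX and 5 of 9 for PA, or 4 and 3 without SED 3. The summed macrophage list, as the mean of its log2 levels, ranged from 7.88 to 8.01 in EX, from 7.89 to 8.20 in PA and from 7.79 to 8.67 in SED, with SED 1 the lowest and SED 3 the highest. The neutrophil markers S100a8 (8.59) and S100a9 (8.30) were also highest on SED 3, and S100a8 was lowest on SED 1 (3.63). In whole tissue, more cells of a type and more RNA per cell cannot be told apart, and the part of these markers in the class II values was not tested.

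Several markers of B cells and dendritic cells were dim. Of the B cell markers, Cd79b, Ms4a1 and Cr2 were below the filter, and neither of the 2 tested, Fcrla and Blk, was highest on SED 3. Blk was nonetheless lower in PA than on any SED array. It differed from SED by -0.32 in EX (limma adjusted p = 0.203) and -0.59 in PA (limma adjusted p = 0.164). Without SED 3, these were -0.30 and -0.58. Fcrla differed by 0.38 in EX and -0.18 in PA. The dim Cd79b, which was not tested, was higher on every SED array than on any active array, as was the dim T cell marker Cd5. Ms4a1 and Cr2 overlapped between the groups. Of the 18626 tested probe sets, 3.51% had all EX arrays below all SED arrays. For PA it was 3.51% as well, and the share with both was not counted. Of the dendritic cell markers, Flt3, Clec9a and Batf3 were below the filter, and of the 3 tested, Clec10a was highest on SED 3 and Itgax and Itgae on SED 4. Without SED 3, macrophage markers had a lower mean than SED in 5 of 14 for EX and 5 of 14 for PA, against 10 and 9 with it. The class II genes had a lower mean in 4 of 5 for EX and 3 of 5 for PA without SED 3, against 5 and 4 with it. Of all 10244 genes, 4404 had a lower EX mean and 4111 a lower PA mean without SED 3. The 4 EX differences were -0.32 for RT1-Ba and RT1-Bb, -0.11 for RT1-Da and -0.13 for RT1-Db1. The second probe sets gave -0.06 for RT1-Ba (1370822_at) and 0.17 for RT1-Db1 (1370382_at).

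**Figure D4:**
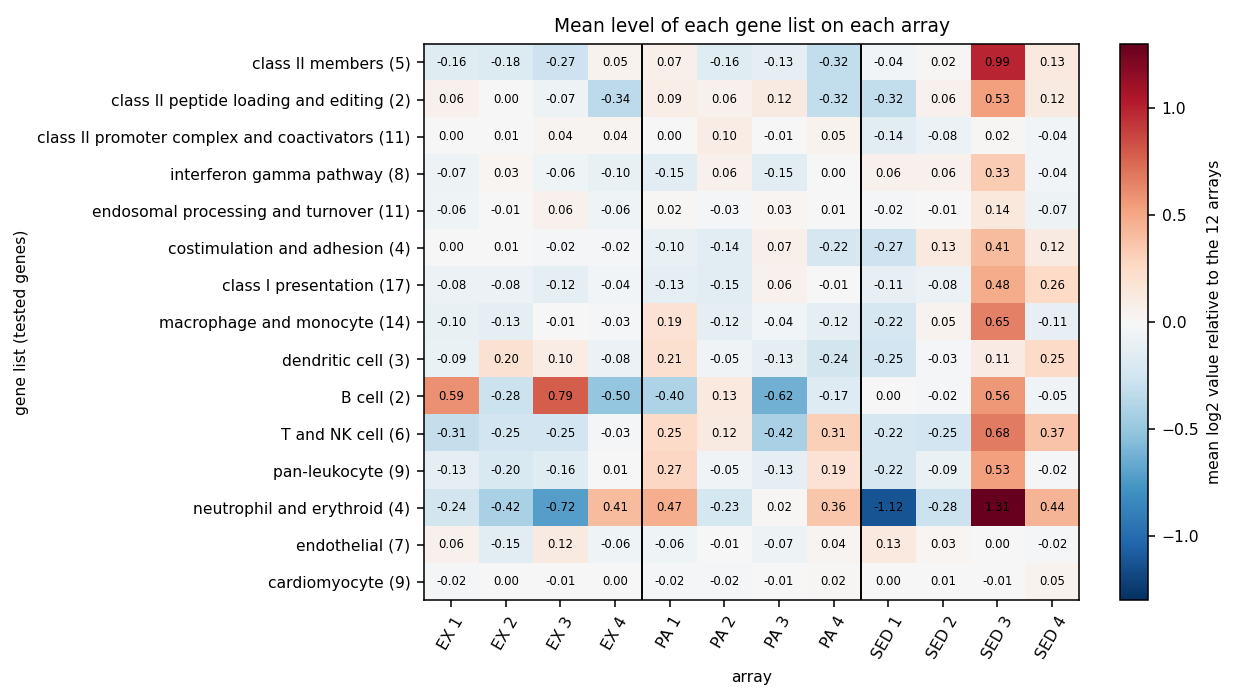
Mean log2 value of each gene list on each array, relative to the mean of the 12 arrays, with lists in rows (number of tested genes in brackets) and EX, PA and SED arrays in columns. On SED 3 the class II genes read 0.99 above their mean, the neutrophil and erythroid list 1.31, the T and NK cell list 0.68, the macrophage list 0.65, the pan-leukocyte list 0.53 and the class I list 0.48.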

How the data were processed

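The deposited values are log2 numbers in 1 table of 31099 rows and 12 arrays. Both MAS5 and RMA are named, per the submitters' processing notes, without a role, so background correction and normalization of these values are not given in the sources used here. Per the labels' protocols, 6 µg of total RNA per array was labelled with biotin. Values were used as deposited, without 57 control rows. Arrays were grouped by their labels. Nothing says that arrays were separate animals beyond the pools, and the pools of 4 from 12 animals that the design text gives would fill 3 arrays, not 4, so p-values measure only the spread between these arrays. Symbols came from the platform's annotation (20826 probe sets with 1 symbol, 436 with several, 9780 with none). The upper 60% by mean log2 value (4.94 or more) went into limma 3.58.1 (R 4.3.3), fitted as 3 group means over 12 arrays with 9 residual degrees of freedom, with Benjamini-Hochberg adjustment over all 18626. A gene was represented by its brightest tested probe set. The members, the 14 gene lists and the tests were chosen with earlier results of these data known, and so support nothing independently. Named genes are the members, the 3 of each list with the smallest p, a set given whatever its values, and the 10 most correlated with the class II average with and without SED 3. Arrays carry no read depth, and their number limits the precision. Same-numbered arrays did not deviate together (r from -0.208 to 0.134 over 12 pairs). Alternatives were other normalizations, filters, variance models, array weights, an offset of 32, a replicate block and arrays left out. The steps were tested on simulated data. Python 3.11.15 and matplotlib 3.10.9 drew the figures.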

Additional observations from a re-analysis of the deposited data

Results flagged for a closer look

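Among 36 sets of 4 arrays (12 probe sets in 3 groups), 2 held an array far from the other 3 by Dixon's ratio, and chance gives about 1 in 20. The RT1-Ba probe set 1370822_at read 7.88 on SED 3, against 6.41 to 6.52 on the other SED arrays. The dim Ciita probe set 1379381_at read 4.69 on EX 4, against 4.32 to 4.36 on the other EX arrays.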

How the results depend on the processing

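Class II probe sets called for EX against PA numbered 0 under every alternative run. Over the whole array, calls for EX against SED numbered 0 in the fit reported, 8 with array weights, 2 without SED 1 and SED 3 together, 4 at a threshold of 0.1, and 0 to 2 when single arrays were left out (1 without EX 2, 2 without SED 1). Array weights gave 1 call for PA against SED and 1 for EX against PA, against 0 in the fits reported. With the replicate block, 0 probe sets were called in each comparison and 0 of the class II probe sets in EX against PA. The labels do not say that equal array numbers mark shared animals or days. The EX minus PA difference of RT1-Bb 1371065_at, 0.01, turned to -0.0058 with quantile normalization, -0.005 with centred medians and -0.0042 with an offset of 32. With single arrays left out it ranged from -0.18 to 0.20, that of RT1-Ba 1370822_at from -0.31 to 0.068, and that of RT1-Ba 1377334_at from -0.10 to 0.15. The cause was not tested. Over all alternatives, EX minus SED ranged from -0.86 to -0.15 for RT1-Bb 1371065_at, from -0.57 to -0.10 for RT1-Da, and from -0.63 to -0.19 for RT1-Ba 1377334_at. The -0.15 is from the average of all RT1-Bb probe sets, not from 1371065_at alone. PA minus SED ranged from -0.87 to -0.32, from -0.78 to -0.30, and from -0.64 to -0.23 for the same probe sets. The other 4 crossed 0 in PA minus SED. EX minus SED ranged from -0.58 to -0.06 for RT1-Ba 1370822_at, from -0.66 to -0.13 for RT1-Db1 1370383_s_at, from -0.25 to 0.17 for RT1-Db1 1370382_at and from -0.13 to 0.0 for Cd74, and PA minus SED from -0.44 to 0.05, from -0.48 to 0.05, from -0.01 to 0.40 and from -0.04 to 0.09. Dim probe sets, Ciita's among them, were left out of the fit reported.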
